A study of Nothobranchius furzeri with 6 samples.

Results

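The ligands and receptors of axon guidance were followed across the cell types and ages of the killifish retina. All entries of the gene table were taken whose name begins with SEMA, PLXN, NRP1, NRP2, EFNA, EFNB, EPHA, EPHB, ROBO, SLIT1, SLIT2, SLIT3, NTN or UNC5. This gave 111 of the 24989 genes, and 110 of them had at least 1 transcript. They comprised 29 semaphorins, 12 plexins, 5 neuropilins, 15 ephrins, 23 Eph receptors, 11 Slits and Robos, and 16 netrins and UNC5 entries. The prefix also took in UNC50, which is not a netrin receptor and is counted but not described. The gene table holds 94 distinct names for the 111 genes, so a name that occurs more than once is given here with its identifier. Some names differ from other annotations of the same locus: SEMA6D carries sema6c as a second name in the table. Names that end in 1OF2 or the like belong to gene copies, between which reads could have been divided.

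Neural retinas, freed of the pigment epithelium, came from wild-type female fish of Nothobranchius furzeri, the turquoise killifish, a short-lived vertebrate used to study ageing. The inbred strain was GRZ-AD, and dissociated cells were profiled by single-cell RNA sequencing. Fish were untreated and were 6, 12 or 18 weeks old, with 2 libraries per age. Each 6-week-old library pooled 3 fish, and each 12- or 18-week-old library pooled 2 fish. The 37243 cells (14222 at 6, 12898 at 12 and 10123 at 18 weeks) carry the cell type and cluster names of the authors.

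Guidance molecules steer growing axons by attraction or repulsion. Semaphorins act through plexins, for which neuropilins are co-receptors of secreted semaphorins. Ephrins are bound to the cell surface and signal through Eph receptors on the neighbouring cell, Slits repel through Robos, and netrins attract through DCC and repel through UNC5 receptors. In the vertebrate retina they are known for mapping ganglion cell axons onto the midbrain and for sorting amacrine, bipolar and ganglion cell processes into layers.

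The libraries held 4804 to 7235 cells and 17393089 to 24317894 unique molecular identifiers (UMIs, 1 per captured transcript), of which the guidance genes made up 0.439% overall. Between 6 and 18 cell barcodes were shared by any pair of libraries. Of 107 marker entries listed for the retinal cell types, 84 had their highest level in the type they mark. Counts were summed per library and cell type for the 16 types with at least 10 cells in every library. Levels are given as counts per 1e+06 UMIs (CPM, on library sizes scaled by trimmed means of M-values) and are set against each other between cell types for the same gene, not between genes. The cell types were clustered on these same cells, so their levels are a description without a test.

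Guidance genes were found in every type, with the widest set in retinal ganglion cells, the neurons whose axons form the optic nerve. A level of at least 50 CPM was reached by 50 of the genes in ganglion cells, by 36 in GABAergic, 30 in glycinergic and 30 in starburst amacrine cells, and by 25 in bipolar cells. Müller glia, which span the retina and support its neurons, had 21 such genes, rods 8 and immune cells 5. The summed level of all guidance genes ranged over the 6 libraries from 8537 to 10838 CPM in ganglion cells and from 7213 to 11478 CPM in starburst amacrine cells, against 1051 to 1425 CPM in immune cells. In all, 75 genes reached 50 CPM in at least 1 type, 13 of them in a single type and 10 in at least 10 types. For 35 of the 75, the lowest library of the leading type lay above the highest library of the next type. These counts are not set against those of all genes, so they show no trait particular to guidance genes. Another 12 genes stayed under 10 CPM in each of the 16 types.

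Among semaphorins, 23 of 29 reached 50 CPM, and their leading types included glia, cones and amacrine cells. SEMA3C, a secreted semaphorin, was highest in Müller glia at 800 CPM (range 631 to 944 over 6 libraries), followed by ganglion cells at 153 CPM (130 to 218). No library of the other type reached the Müller glia range. SEMA5B, a transmembrane semaphorin with thrombospondin repeats, was highest in oligodendrocytes, the myelinating glia, at 399 CPM (312 to 458), with bipolar cells next at 61.0 CPM. SEMA6A, a transmembrane ligand of A-type plexins, was the most widespread and reached 50 CPM in 14 types. Its mean was 664 CPM in UV cones (550 to 921), 610 CPM in Müller glia (483 to 790) and 594 CPM in Vip neurons, whose library ranges overlap. Its lowest mean was in horizontal cells, the lateral interneurons of the outer retina, at 6.59 CPM.

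The related transmembrane semaphorins SEMA6B(1OF2) and SEMA6D led in starburst amacrine cells, the cholinergic amacrine type. SEMA6B(1OF2) had 616 CPM there (354 to 797) and 416 CPM in Vip neurons (359 to 553), so the libraries overlap. SEMA6D had 534 CPM in starburst cells (224 to 690) and 255 CPM in bipolar cells (210 to 314), again with overlap. SEMA7A (XLOC_019689), which is anchored to the membrane by a lipid, was highest in L/M cones at 215 CPM (186 to 244), followed by S cones at 166 CPM (110 to 227). SEMA3AB, SEMA4AA and PLXNC1 were chosen after their values were seen. SEMA3AB, a secreted semaphorin, had 191 CPM in Müller glia (175 to 205) and 95.7 CPM in ganglion cells (70.7 to 124). SEMA4AA and PLXNC1, a receptor of SEMA7A in mammals, had 63.0 CPM and 60.5 CPM in immune cells, and neither exceeded 3.57 CPM on average in any other fitted type.

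Of the plexins, receptors of the semaphorins, 10 of 12 reached 50 CPM in a type. PLXNA2 (XLOC_021451) had 890 CPM in starburst (457 to 1160), 873 CPM in glycinergic and 853 CPM in PVALB5 amacrine cells, which cannot be ordered by their libraries. Its other copy, PLXNA2(3OF3), had 560 CPM in Vip neurons (433 to 662) and 405 CPM in horizontal cells (335 to 533). PLXNA4 was highest in horizontal cells at 227 CPM (203 to 269), above bipolar cells at 134 CPM (118 to 152) in every library. By whole types, PLXNB2B, a receptor of class 4 semaphorins, was highest in immune cells at 191 CPM (157 to 240). Bipolar cells as a whole had 117 CPM (84.3 to 149), but a bipolar cluster given below exceeded immune cells. PLXND1 averaged 115 CPM in starburst cells (76.7 to 140) and 85.2 CPM in immune cells (54.4 to 120), with overlap.

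Of the 5 neuropilins, 4 reached 50 CPM and the second NRP1A entry (XLOC_013042) had no transcript. NRP1A (XLOC_014121) was at 329 CPM in ganglion cells (279 to 368) and 322 CPM in PVALB5 amacrine cells (203 to 655), whose ranges overlap. NRP1B was highest in ganglion cells at 79.8 CPM (61.3 to 98.1), above bipolar cells at 40.2 CPM (35.3 to 44.6). NRP2(1OF2) led in differentiating cells, the proliferating and newborn cells, at 112 CPM (75.4 to 142). NRP2B varied most among its libraries, with 30.3 to 195 CPM in glycinergic amacrine cells.

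Among ephrins, 10 of 15 reached 50 CPM. The A-type ephrins, which are anchored by a lipid, differed in their leading type. EFNA2 was at 700 CPM in PVALB5 amacrine cells (535 to 901), 692 CPM in ganglion cells (537 to 833) and 669 CPM in starburst cells, levels that do not separate. EFNA3A was highest in starburst cells at 441 CPM (307 to 579), above ganglion cells at 192 CPM (170 to 216). EFNA1A was highest in bipolar cells at 331 CPM (263 to 445), above GABAergic amacrine cells at 173 CPM (139 to 197). Its paralogue EFNA1B led instead in oligodendrocytes at 277 CPM (156 to 485), with UV cones at 157 CPM (63.5 to 303) and an overlap between them. EFNA3B was highest in Vip neurons at 316 CPM (258 to 410), above starburst cells at 114 CPM (38.7 to 174). EFNB3, a transmembrane ephrin, had 418 CPM in PVALB5 amacrine cells (380 to 452), 353 CPM in starburst cells (294 to 434) and 328 CPM in GABAergic amacrine cells.

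Of the 23 Eph receptors, 11 reached 50 CPM, and copies of the same name differed between neurons. EPHA6 (XLOC_012996) was highest in starburst cells at 940 CPM (760 to 1091), followed by ganglion cells at 163 CPM (147 to 207). EPHA6 (XLOC_002800) led in ganglion cells at 276 CPM (185 to 317), with starburst cells at 93.3 CPM (20.6 to 194), which overlap. EPHA3L was at 227 CPM in ganglion cells (174 to 279) and 183 CPM in starburst cells (140 to 261), and reached 50 CPM in 12 types. EPHB2B was highest in Müller glia at 343 CPM (306 to 408), with glycinergic amacrine cells at 234 CPM (195 to 286) and no overlap.

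Of the 11 Slits and Robos, 8 reached 50 CPM in a type. The Slit receptor ROBO2(1OF2) was highest in ganglion cells at 1049 CPM (847 to 1264), next to starburst cells at 862 CPM (703 to 1073), which overlap, and PVALB5 amacrine cells at 351 CPM. The other copy, ROBO2(2OF2), was highest in Vip neurons at 472 CPM (397 to 649), above GABAergic amacrine cells at 268 CPM (241 to 302). Of the ligands, SLIT2 was highest in PVALB5 amacrine cells at 620 CPM (450 to 748), and ganglion cells had 128 CPM (102 to 156). By whole types, SLIT3 was found mainly in Vip neurons at 277 CPM (193 to 381) and ganglion cells at 257 CPM (201 to 334). The third type had 23.9 CPM, but a bipolar cluster given below came near these levels.

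Netrins and UNC5 receptors had 9 of 16 genes at 50 CPM or more. NTNG2(1OF2), a netrin-G, which in mammals binds a synaptic adhesion partner and not DCC or UNC5, was highest in rods at 1118 CPM (923 to 1306). UV cones followed at 671 CPM (556 to 781), S cones at 491 CPM and ganglion cells at 403 CPM. Rod transcripts can be free in the cell suspension, so the summed rod markers were set beside it. These markers reached 1.39% to 4.40% of their rod level in the other types. NTNG2(1OF2) ranged from 0.300% of its rod level in starburst cells to 60.1% in UV cones. It reached 44.0% in S cones, 36.1% in ganglion cells and 0.754% in Müller glia. In L/M cones it reached 2.09% and the markers 1.78%, and in immune cells 5.81% and 4.40%. The part of free rod RNA was not tested. NTNG1(1OF2) (XLOC_013683) was highest in bipolar cells at 520 CPM (455 to 584), above ganglion cells at 227 CPM (148 to 304). By whole types, UNC5C (XLOC_023874), a repulsive netrin receptor, was highest in Vip neurons at 2518 CPM (2179 to 2726). Starburst cells followed at 748 CPM (453 to 1129) and PVALB5 amacrine cells at 557 CPM. UNC5D led in GABAergic amacrine cells at 379 CPM (269 to 475), with ganglion cells at 246 CPM (191 to 301), with overlap. The map of levels by cell type shows these patterns side by side, and the plot of 8 genes gives every library.

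**Figure D1:**
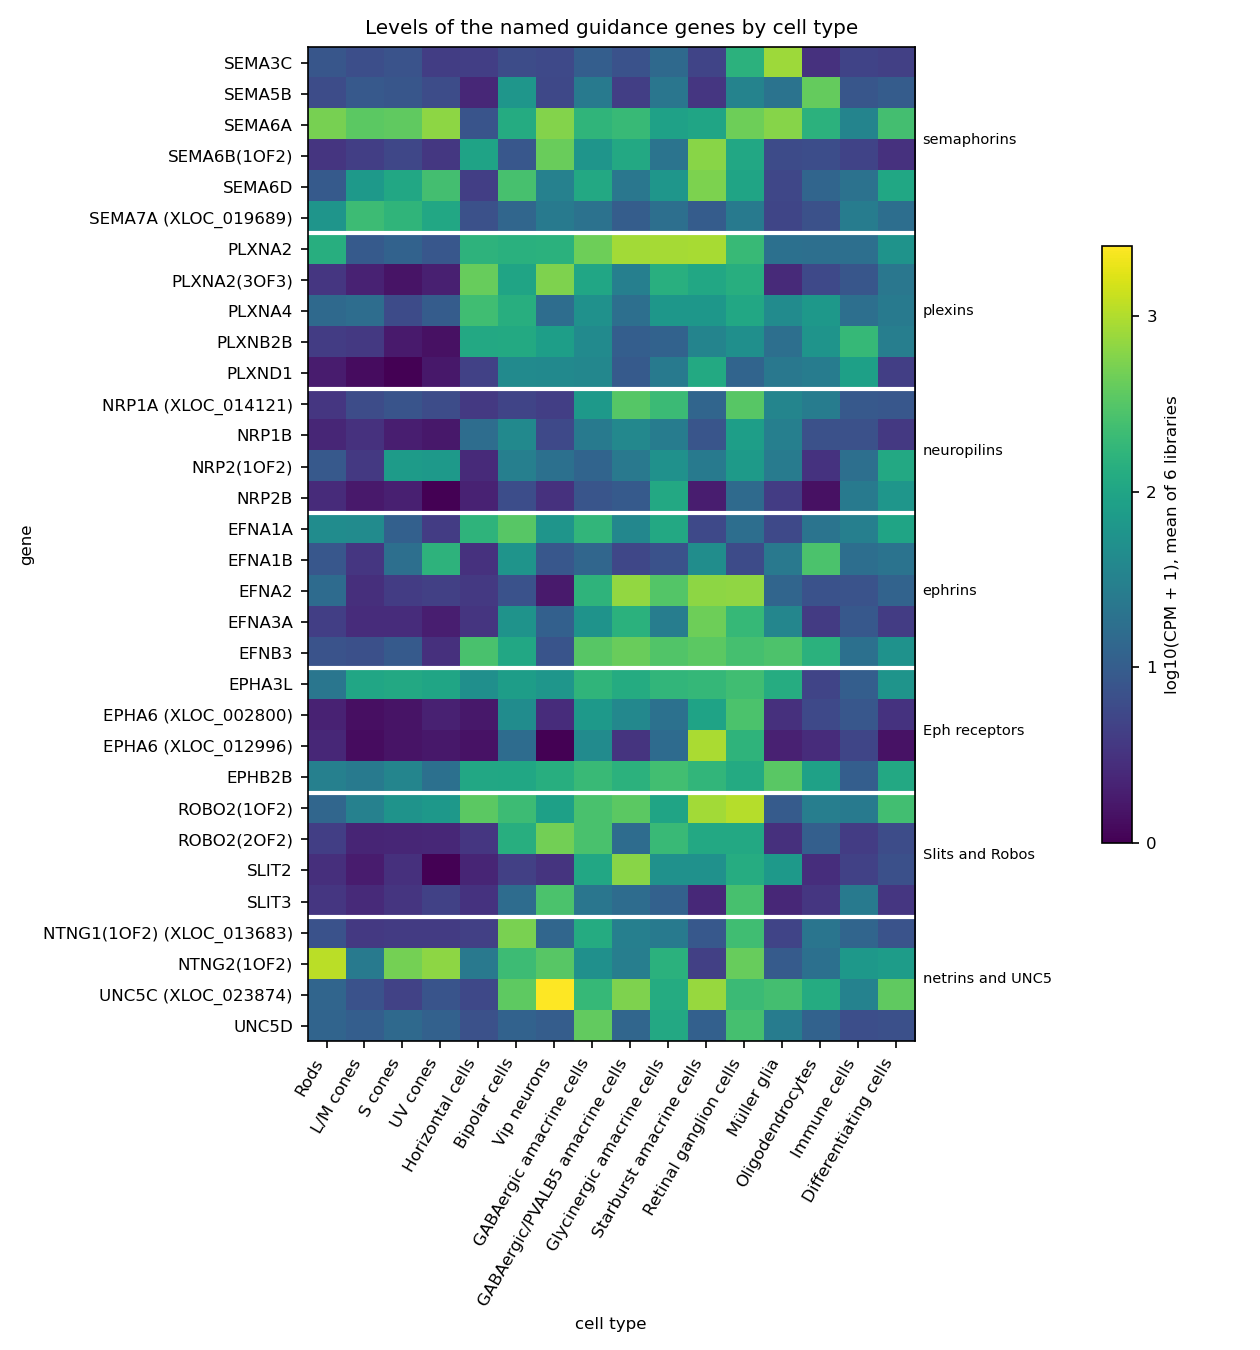
Heat map of the 32 guidance genes named by level (rows, grouped by family) in the 16 cell types (columns), with colour giving log10(CPM + 1) of the mean of 6 libraries. SEMA3C stands out in Müller glia (800 CPM), SEMA5B in oligodendrocytes (399 CPM), NTNG2(1OF2) in rods (1118 CPM) and UNC5C (XLOC_023874) in Vip neurons (2518 CPM).

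**Figure D2:**
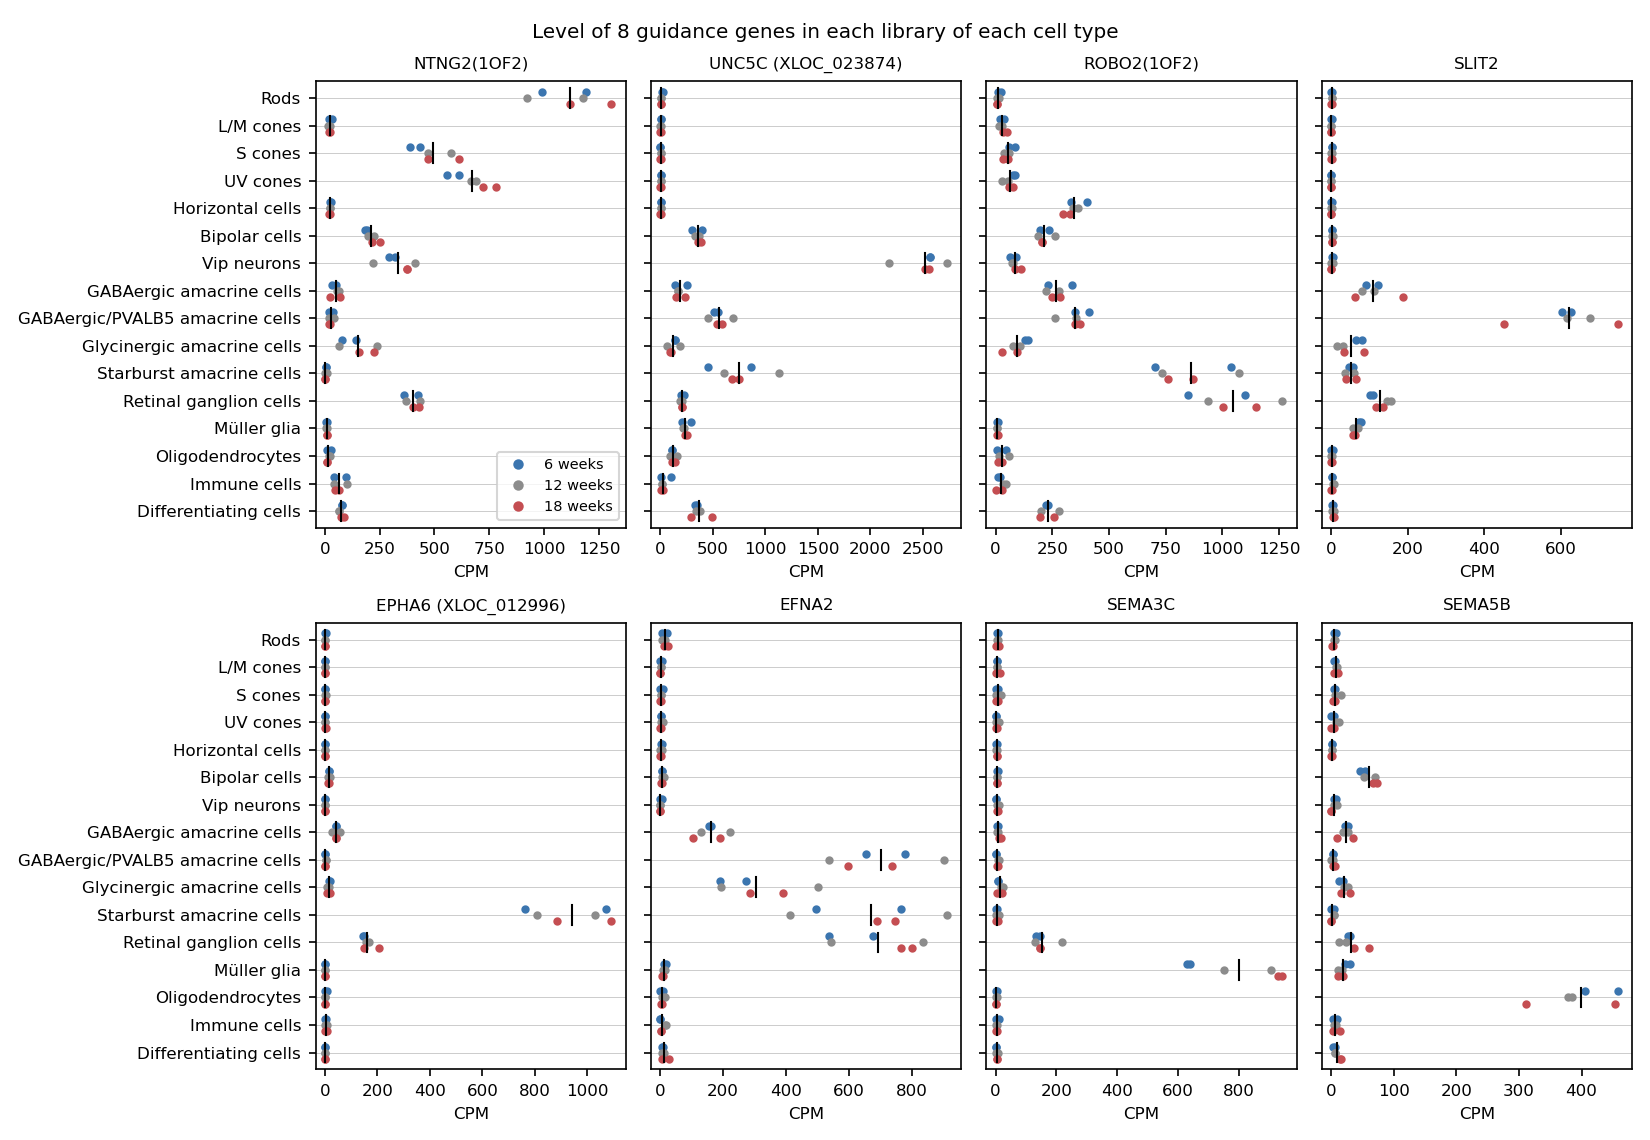
Level in CPM (horizontal axis, linear, scaled for each gene) of 8 guidance genes in each library of the 16 cell types (rows), with 1 point per library coloured by age (6, 12 and 18 weeks) and a black line at the mean of 6 libraries. For SLIT2, all libraries of PVALB5 amacrine cells (450 to 748 CPM) lie above those of the other types, whereas EFNA2 is spread over PVALB5 amacrine, starburst and ganglion cells.

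Bipolar cells, the interneurons between photoreceptors and the inner retina, fall into 13 clusters of the authors, and guidance genes were unevenly spread over them. Members were picked after their values were seen, as those with at least 200 CPM in a cluster whose lowest library lay above the highest library of every other cluster. This held for 14 genes in 7 clusters and is a description, since the clusters were drawn from the same cells. Cluster 26 had NTNG1(1OF2) (XLOC_013683) at 6952 CPM (6157 to 7480), against 1304 CPM in the next cluster. The same cluster led for the netrin receptor UNC5A (XLOC_000830) at 336 CPM (251 to 411), against 14.6 CPM in the next cluster. Cluster 12 led for UNC5C (XLOC_023874) at 3173 CPM (2881 to 3510), SEMA6A at 554 CPM, PLXNA2(3OF3) at 547 CPM and SLIT3 at 239 CPM. The next clusters had 1621, 345, 159 and 18.3 CPM of these genes, in the same order. The ranks of types given above take bipolar cells as a whole. UNC5C in cluster 12 lay above the level given for Vip neurons, and SLIT3 came near its own there.

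Cluster 14 led for 2 plexins and 1 ephrin. It had 988 CPM of PLXNB2B, 480 CPM of PLXNB1A, likewise a receptor of class 4 semaphorins, and 655 CPM of EFNB3, against 383, 24.7 and 131 CPM in the next clusters. Cluster 16 led for SEMA6E at 1447 CPM and SEMA6D at 1088 CPM, against 927 and 632 CPM. In cluster 14, PLXNB2B lay above the level given for immune cells and EFNB3 above that for PVALB5 amacrine cells. SEMA6D in cluster 16 lay above the level given for starburst cells. Single genes led in the other clusters: ROBO2(2OF2) in cluster 13 (411 CPM), EFNA1B in cluster 8 (225 CPM) and EPHB3(1OF2) (XLOC_014980) in cluster 6 (208 CPM).

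**Figure D3:**
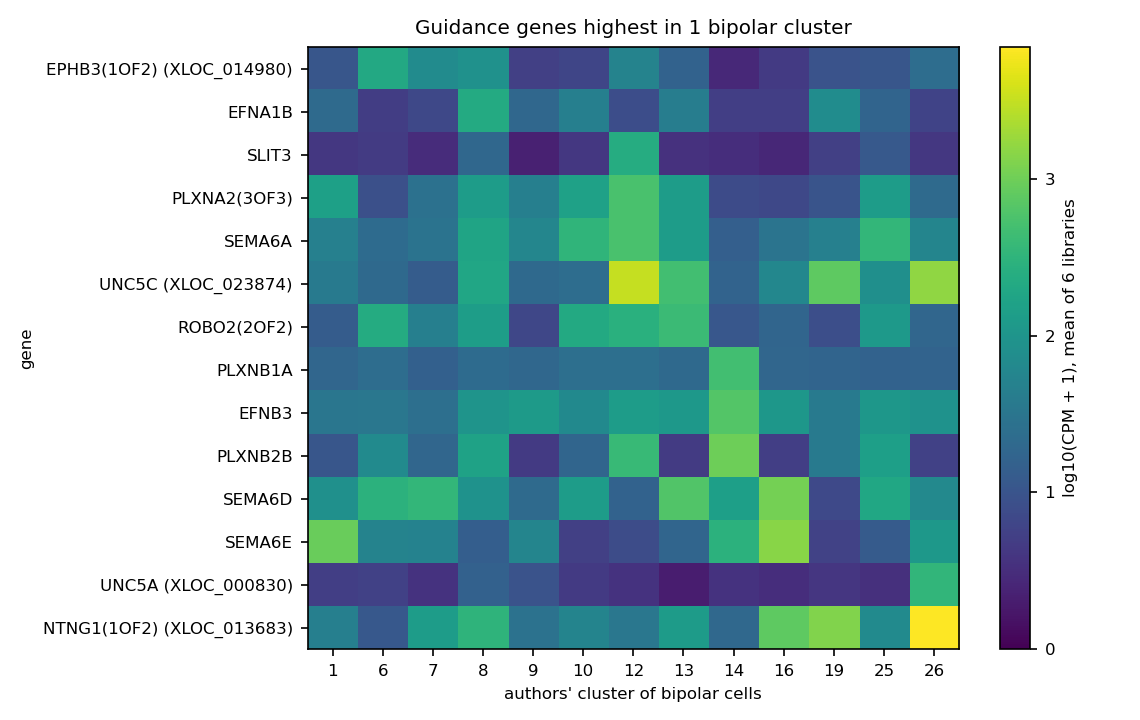
Heat map of the 14 guidance genes that were highest in 1 bipolar cluster (rows) over the 13 bipolar clusters numbered as by the authors (columns), with colour giving log10(CPM + 1) of the mean of 6 libraries. NTNG1(1OF2) and UNC5A share cluster 26, and PLXNB2B, PLXNB1A and EFNB3 share cluster 14.

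Ages were compared next, to ask whether guidance genes changed in a cell type as fish grew old. Between 18 and 6 weeks, 25 of the 101 genes that could be tested in a type changed in at least 1 of them, with 17 rises and 13 falls over 6 types. This count of genes was not set against all genes, so only the shares of pairs below can be compared. Rises were found for 4 A-type ephrins in bipolar cells, for EFNA1B in UV cones and oligodendrocytes and for PLXNB2(1OF2) in L/M and UV cones, and falls for 9 genes of Müller glia. The 30 calls were among 696 pairs of gene and type (4.31%), in a setting where 2.36% of all pairs were called. Genes with low counts were left out of each fit, and 10 guidance genes passed in no type. The test was edgeR's quasi-likelihood test with the library as the replicate (n = 2 per age, all 6 libraries in each fit) and Benjamini-Hochberg adjustment over all genes of a type, called under 0.05. Its p-values measure the spread between pooled libraries. The counts that follow, each with a library left out, include pairs that are not among the 30. Leaving out replicate 2 of 18 weeks gave 8 calls and its replicate 1 gave 17. Leaving out replicate 2 of 6 weeks gave 14 calls and its replicate 1 gave 16.

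The calls were unevenly spread over types. In Müller glia, 12 of 70 guidance genes were called, where 5.31% of all genes were. In bipolar cells 8 of 89 were called (all genes 6.94%), in horizontal cells 4 of 50 (4.35%) and in L/M cones 3 of 36 (2.94%). UV cones had 2 of 14 (1.49%), and oligodendrocytes 1 of 28 (1.1%). By family, semaphorins had 2 rises and 6 falls in 179 pairs, ephrins 6 and 3 in 123, plexins 4 and 1 in 95, and Eph receptors 1 and 1 in 114. Slits and Robos had 2 and 1 in 68, netrins and UNC5 receptors 2 and 1 in 88, and neuropilins none in 29. The median log2 fold change of guidance genes was 0.33 in L/M cones and −0.19 in Müller glia, where that of all genes tested was −0.00 in both. These types did not stand apart: the median was 0.34 in UV cones and −0.18 in horizontal cells. It was −0.25 in oligodendrocytes, and also −0.25 in immune cells, where no guidance gene was called.

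In Müller glia, 5 of the 9 falls were in semaphorins. SEMA3BL, a secreted semaphorin, had 25.7 and 21.7 CPM at 6 weeks, 21.6 and 20.5 CPM at 12 weeks, and 8.58 and 7.19 CPM at 18 weeks. Both 18-week-old libraries lay below all others, with a log2 fold change of −1.56 at 18 against 6 weeks (SE 0.29, edgeR adjusted p 0.0028, n = 2). SEMA3BL had 18 and 13 UMIs at 18 weeks, against 51 and 60 at 6 weeks. Among the 16 fitted types its highest level was in ganglion cells, at 76.0 CPM (50 to 118). SEMA3H, likewise secreted, had 16.7 and 23.8 CPM at 18 weeks, against 35.3 and 50.2 CPM at 6 weeks (−1.11, SE 0.24, edgeR adjusted p 0.011). SEMA6A fell to 483 and 536 CPM at 18 weeks, against 790 and 678 CPM at 6 weeks (−0.53, SE 0.15, edgeR adjusted p 0.049). SEMA5B(2OF2) fell to 49.6 and 43.1 CPM at 18 weeks, against 72.6 and 74.0 CPM at 6 weeks (−0.66, SE 0.18, edgeR adjusted p 0.0465). For none of these genes did the 18-week-old libraries overlap with those of 6 weeks. The same held for all 30 called pairs and for 47 of the 70 guidance genes tested in Müller glia. This share was not set against that of all genes and shows no trait particular to guidance genes. A lack of overlap therefore adds no support to a call. At 12 weeks, SEMA3H and SEMA5B(2OF2) overlapped with 6 weeks.

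The fifth, SEMA4E, rested on few transcripts. It had 14 and 21 UMIs at 6 weeks, 6 and 7 at 12 weeks, and 2 and 0 at 18 weeks. Its rate at 18 over 6 weeks was 0.0697 (exact 95% interval 0.0081 to 0.271, for counting error only). The fitted log2 fold change of −3.71 (edgeR adjusted p 0.0076) depends on the count added to zeros and is no measure of size.

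The other 4 falls were in 2 ephrins, a Robo and a netrin receptor. EFNA4 had 46.4 and 43.3 CPM at 6 weeks, 27.4 and 25.6 CPM at 12 weeks, and 22.9 and 22.7 CPM at 18 weeks (−0.97 at 18 against 6 weeks, SE 0.20, edgeR adjusted p 0.0072). EFNA3B fell to 6.20 and 6.64 CPM at 18 weeks, against 14.1 and 14.8 CPM at 6 weeks (−1.17, SE 0.33, edgeR adjusted p 0.044). Replicates of an age lay close together for both ephrins, but EFNA3B had only 13 and 12 UMIs at 18 weeks. ROBO1(2OF3), a Slit receptor, fell to 63.9 and 55.9 CPM at 18 weeks, against 115 and 87.4 CPM at 6 weeks (−0.75, SE 0.18, edgeR adjusted p 0.025). UNC5B fell to 26.2 and 25.4 CPM at 18 weeks, against 63.0 and 58.1 CPM at 6 weeks (−1.22, SE 0.27, edgeR adjusted p 0.012). Its 12-week-old libraries lay apart, at 39.3 and 76.5 CPM.

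Rises in Müller glia were found for 3 genes. SEMA3C, which marked these cells, had 639 and 631 CPM at 6 weeks, 906 and 752 CPM at 12 weeks, and 944 and 930 CPM at 18 weeks (0.56 at 18 against 6 weeks, SE 0.14, edgeR adjusted p 0.034). UNC5D had 28.1 and 50.9 CPM at 18 weeks, against 17.6 and 10.5 CPM at 6 weeks (1.51, SE 0.32, edgeR adjusted p 0.010). The transmembrane semaphorin SEMA4G had 18.6 and 11.6 CPM at 18 weeks, against 6.05 and 5.42 CPM at 6 weeks (1.41, SE 0.40, edgeR adjusted p 0.043). It rested on 39 and 21 UMIs at 18 weeks, against 12 and 15 at 6 weeks. As in all called pairs, no 18-week-old library of these genes overlapped with 6 weeks, although the replicates of UNC5D differed widely.

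Whether the change of Müller glia differed from that of the other types was tested with limma on the log2 CPM of a type minus the mean of the other types in the same library. Of 696 pairs, 4 were called, all in Müller glia, where 1.12% of all genes were called (0.155% over the 16 types). With a prior count of 0.5 in place of 2 before the logarithm, 1 was called. The differences in log2 change were 1.76 for UNC5D (SE 0.27, adjusted p 0.016), −1.23 for EFNA3B (SE 0.23, adjusted p 0.036), −2.39 for SEMA4E (SE 0.26, adjusted p 0.0032) and −1.24 for SEMA3BL (SE 0.22, adjusted p 0.027). EFNA3B was called as a rise in bipolar cells. The difference was not called for the other 8 genes that changed in Müller glia, and SEMA4E passed the count filter in no other type. The difference of SEMA4E is therefore set against types with few counts of it, and its size depends on the prior count. SEMA3BL passed the filter in only 3 of the 16 types, so most types behind its difference also had few counts. UNC5D passed in 8 types and EFNA3B in 10. Leaving out replicate 2 of 18 weeks gave 2 called differences, replicate 1 of 6 weeks 2, and replicate 2 of 6 weeks 1.

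Single libraries weighed on the Müller glia calls. SEMA3BL was called without each library in turn. Of the 12 calls, 3 remained without 18-week-old replicate 1 (SEMA3BL, SEMA4E, UNC5D) and 3 without 18-week-old replicate 2 (SEMA3BL, SEMA3H, SEMA4G). Without 6-week-old replicate 1 there remained 6, without 6-week-old replicate 2 there remained 4, and SEMA6A was lost without either 12-week-old library. All kept their direction, but this was set beforehand, since the 18- and 6-week-old libraries of every called pair did not overlap. With each cell thinned to 1000 UMIs, none of the 9 genes still testable was called. Median UMIs per Müller glia cell were 4045 and 4000 at 18 weeks, against 2538.5 and 3932 at 6 weeks, and SEMA4E without 18-week-old replicate 2 had a log2 fold change of −2.88.

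Marker genes of other types also moved in Müller glia. Of 13 lists, 2 were higher and 8 lower in summed level in both 18-week-old libraries than in both 6-week-old libraries. Ganglion cell markers summed to 954 and 1225 CPM at 18 weeks, against 523 and 575 CPM at 6 weeks, with 9 of 10 entries found and ISL2A at 0. Amacrine cell markers summed to 250 and 225 CPM at 18 weeks, against 326 and 313 CPM at 6 weeks, with 10 of 11 entries found and TFAP2B at 0. Their part in the results was not tested.

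**Figure D4:**
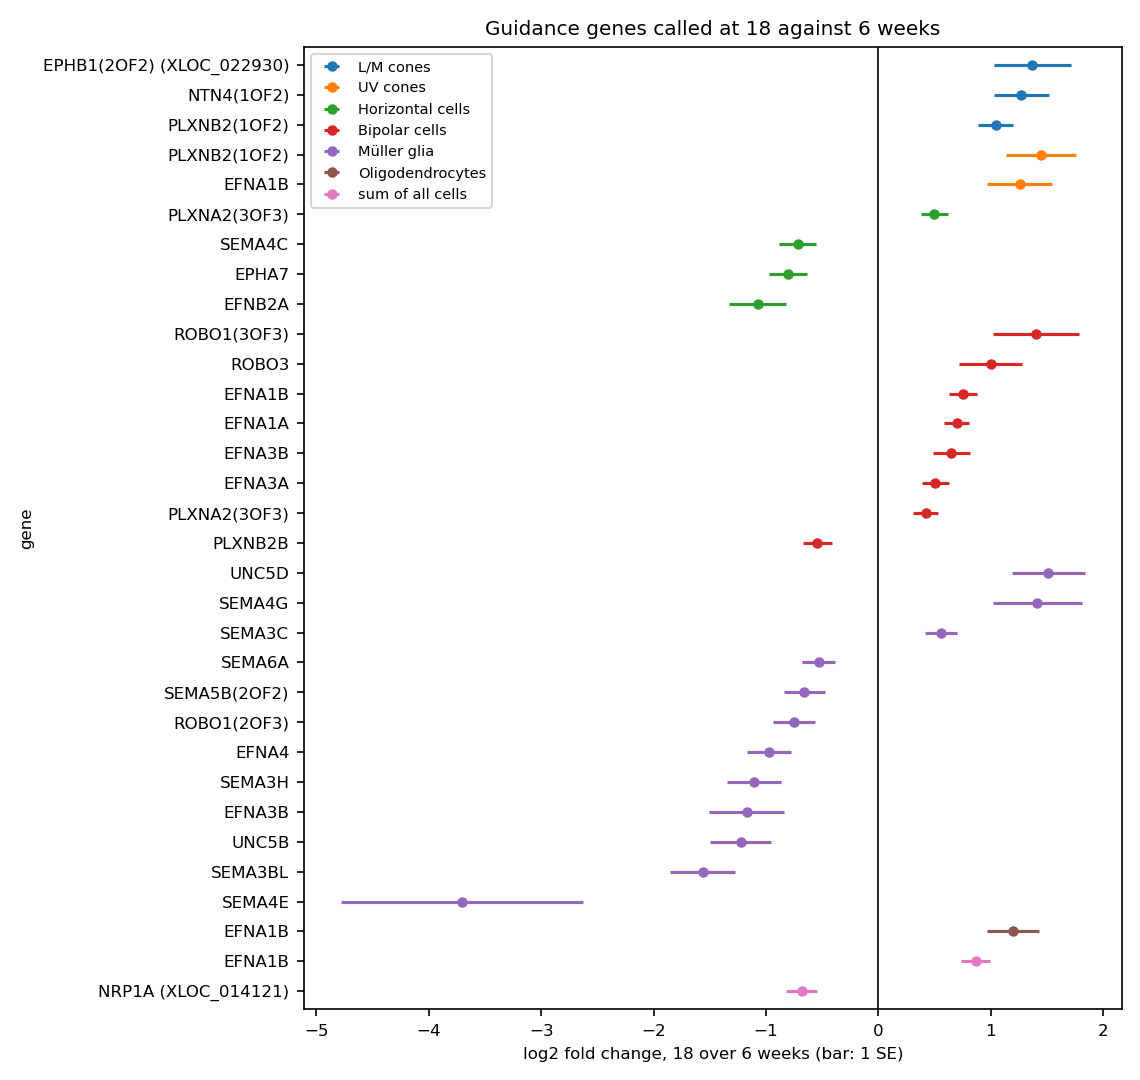
Log2 fold change at 18 over 6 weeks (horizontal axis) with a bar of 1 SE on either side, for the 30 called pairs of guidance gene and cell type and the 2 genes called when all cells were summed, coloured by type (n = 2 libraries per age). Falls predominate in Müller glia (9 of 12), and 7 of 8 changes in bipolar cells are rises.

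In bipolar cells, 7 genes rose and 1 fell, and 4 of the rises were in A-type ephrins. EFNA1A had 272 and 267 CPM at 6 weeks, 310 and 263 CPM at 12 weeks, and 445 and 428 CPM at 18 weeks. The 18-week-old libraries lay above all others, with a log2 fold change of 0.70 against 6 weeks (SE 0.11, edgeR adjusted p 0.0033). EFNA1B had 40.0 and 51.2 CPM at 6 weeks, 48.0 and 46.8 CPM at 12 weeks, and 72.9 and 80.2 CPM at 18 weeks (0.75 at 18 against 6 weeks, SE 0.13, edgeR adjusted p 0.0042). EFNA3A had 60.7 and 67.4 CPM at 18 weeks, against 47.8 and 42.4 CPM at 6 weeks (0.51, SE 0.12, edgeR adjusted p 0.023). EFNA3B had 32.1 and 34.2 CPM at 18 weeks, against 22.2 and 20.2 CPM at 6 weeks (0.65, SE 0.17, edgeR adjusted p 0.034). In the RefSeq annotation EFNA1A lies next to EFNA3A, and EFNA1B next to EFNA3B.

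The other 3 rises were in receptors. PLXNA2(3OF3) had 106 and 124 CPM at 18 weeks, against 86.3 and 85.6 CPM at 6 weeks (0.42, SE 0.11, edgeR adjusted p 0.039). The Slit receptors ROBO1(3OF3) and ROBO3 (XLOC_017029) were at low levels in the bipolar cells as a whole. In cluster 10, ROBO1(3OF3) averaged 42.7 CPM at 6 and 125 CPM at 18 weeks, and ROBO3 33.9 and 62.8 CPM. In cluster 12, ROBO3 averaged 43.0 and 87.3 CPM. Elsewhere the mean of either gene was at most 7.44 CPM at any age. ROBO1(3OF3) had 6.09 and 14.8 CPM at 18 weeks, against 4.82 and 3.29 CPM at 6 weeks (1.40, SE 0.38, edgeR adjusted p 0.040). ROBO3 had 8.19 and 10.3 CPM at 18 weeks, against 3.75 and 5.67 CPM at 6 weeks (1.00, SE 0.28, edgeR adjusted p 0.047). In the bipolar cells as a whole, PLXNB2B was the only called gene that fell. It had 107 and 84.3 CPM at 18 weeks, against 149 and 129 CPM at 6 weeks (−0.54, SE 0.13, edgeR adjusted p 0.024).

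These changes were set against the make-up of the bipolar cells. The mean at 18 weeks was above that at 6 weeks in 12 of the 13 clusters for EFNA3B, in 10 each for EFNA1A, EFNA1B and PLXNA2(3OF3), in 7 for EFNA3A, in 6 for ROBO3, in 4 for ROBO1(3OF3) and in 3 for PLXNB2B. For ROBO3 and ROBO1(3OF3), most clusters had almost no transcripts of the gene, so these counts say little. The fall of PLXNB2B was not shared by all clusters: without overlap, it was higher at 18 weeks in 3 and lower in 4. In cluster 6 its mean was 51.3 CPM at 6 and 104 CPM at 18 weeks. In cluster 14, where it was highest, the means were 1098 and 848 CPM. With clusters weighted alike in every library, 4 of the 8 calls remained (EFNA1A, EFNA1B, EFNA3A and ROBO1(3OF3)). Without cluster 10, an alternative chosen after seeing the data, 6 remained, ROBO3 had an adjusted p of 0.118 and ROBO1(3OF3) was not tested.

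EFNA1A remained alone without 18-week-old replicate 2 or 6-week-old replicate 1, and EFNA1B remained alone without 6-week-old replicate 2, while EFNA3B and ROBO3 were lost without 18-week-old replicate 1. The lost calls in bipolar cells kept their direction, which the lack of overlap had again set beforehand. ROBO1(3OF3) had a log2 fold change of 0.58 without 18-week-old replicate 2. Of 13 marker lists of other types, 1 was higher and 5 lower at 18 than at 6 weeks without overlap. Immune markers summed to 76.0 and 33.3 CPM at 18 weeks, against 16.3 and 23.4 CPM at 6 weeks, with all 9 entries found, and their part was not tested.

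Rises of EFNA1B were found in 2 more types. In oligodendrocytes it had 187 and 156 CPM at 6 weeks, 275 and 231 CPM at 12 weeks, and 327 and 485 CPM at 18 weeks (1.2 at 18 against 6 weeks, SE 0.23, edgeR adjusted p 0.019). In UV cones it had 216 and 303 CPM at 18 weeks, against 112 and 102 CPM at 6 weeks (1.26, SE 0.29, edgeR adjusted p 0.032). Its log2 fold change was positive in each of the 8 types in which it was tested, with 0.80 in Müller glia (edgeR adjusted p 0.064) and 1.56 in rods (edgeR adjusted p 0.087), which were not called. The call in oligodendrocytes was lost without 18-week-old replicate 2, which held 26 of these cells (0.95, edgeR adjusted p 0.139). Of 13 marker lists of other types, 3 were higher and 2 lower without overlap in oligodendrocytes, and their part was not tested. In UV cones the call was kept without 18-week-old replicate 1 and lost without 18-week-old replicate 2 or either 6-week-old library (edgeR adjusted p 0.062 to 0.121).

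PLXNB2(1OF2), a receptor of class 4 semaphorins, rose in L/M and UV cones. In L/M cones it had 104 and 91.7 CPM at 6 weeks, 138 and 134 CPM at 12 weeks, and 196 and 209 CPM at 18 weeks. The ages formed separate steps, with a log2 fold change of 1.04 at 18 against 6 weeks (SE 0.16, edgeR adjusted p 0.0013), and the call was kept without each library in turn. In UV cones it had 38.8 and 36.5 CPM at 6 weeks, 94.4 and 76.9 CPM at 12 weeks, and 98.2 and 109 CPM at 18 weeks (1.45 at 18 against 6 weeks, SE 0.31, edgeR adjusted p 0.018). That call was lost without any 1 of the 18- or 6-week-old libraries (edgeR adjusted p 0.070 to 0.113). In S cones it was not called (0.81, SE 0.31, edgeR adjusted p 0.229).

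L/M cones had 2 further rises. NTN4(1OF2), a secreted netrin, had 16.2 and 16.6 CPM at 6 weeks, 34.6 and 30.9 CPM at 12 weeks, and 33.2 and 47.4 CPM at 18 weeks (1.27 at 18 against 6 weeks, SE 0.24, edgeR adjusted p 0.0076). EPHB1(2OF2) (XLOC_022930), a receptor of B-type ephrins, had 21.0 and 26.0 CPM at 18 weeks, against 8.64 and 9.29 CPM at 6 weeks (1.37, SE 0.34, edgeR adjusted p 0.035). NTN4(1OF2) was lost without replicate 2 of 18 or of 6 weeks (edgeR adjusted p 0.161 and 0.055), and EPHB1(2OF2) without any 1 of the 18- or 6-week-old libraries (0.126 to 0.305). Median UMIs per L/M cone were 4887.5 and 3244 at 18 weeks, against 5484.5 and 7294 at 6 weeks. With each cell thinned to 1000 UMIs, PLXNB2(1OF2) was called in L/M cones, NTN4(1OF2) was not, and EPHB1(2OF2) could not be tested. Of 13 marker lists of other types, 4 were higher and 2 lower without overlap in L/M cones, and 3 higher and 2 lower in UV cones. Oligodendrocyte markers in L/M cones, with all 11 entries found, summed to 88.7 and 76.2 CPM at 18 weeks, against 60.5 and 53.7 CPM at 6 weeks, and their part was not tested.

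Horizontal cells had 3 falls and 1 rise. EPHA7, an Eph receptor with its highest mean in these cells, had 122 and 149 CPM at 6 weeks, 145 and 99.8 CPM at 12 weeks, and 76.8 and 79.0 CPM at 18 weeks (−0.80 at 18 against 6 weeks, SE 0.17, edgeR adjusted p 0.015). The transmembrane semaphorin SEMA4C had 37.0 and 38.1 CPM at 18 weeks, against 69.3 and 54.4 CPM at 6 weeks (−0.72, SE 0.17, edgeR adjusted p 0.025). EFNB2A, a transmembrane ephrin, had 15.0 and 9.73 CPM at 18 weeks, against 25.4 and 26.0 CPM at 6 weeks (−1.07, SE 0.25, edgeR adjusted p 0.025). PLXNA2(3OF3), which also rose in bipolar cells, had 463 and 533 CPM at 18 weeks, against 365 and 340 CPM at 6 weeks (0.50, SE 0.12, edgeR adjusted p 0.032). No call remained without either 18-week-old library, EPHA7 and PLXNA2(3OF3) remained without 6-week-old replicate 1, and SEMA4C remained without 6-week-old replicate 2 (lost calls at an edgeR adjusted p of 0.0503 to 0.277). Of 13 marker lists of other types, 1 was higher and 7 lower without overlap. Amacrine cell markers, with 10 of 11 entries found and PAX6(2OF2) at 0, summed to 3457 and 3641 CPM at 18 weeks, against 2650 and 2492 CPM at 6 weeks, and their part was not tested. Among these entries, GAD1A had its highest mean of all types in horizontal cells themselves (2009 CPM). The sum is therefore not a measure of amacrine RNA alone.

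**Figure D5:**
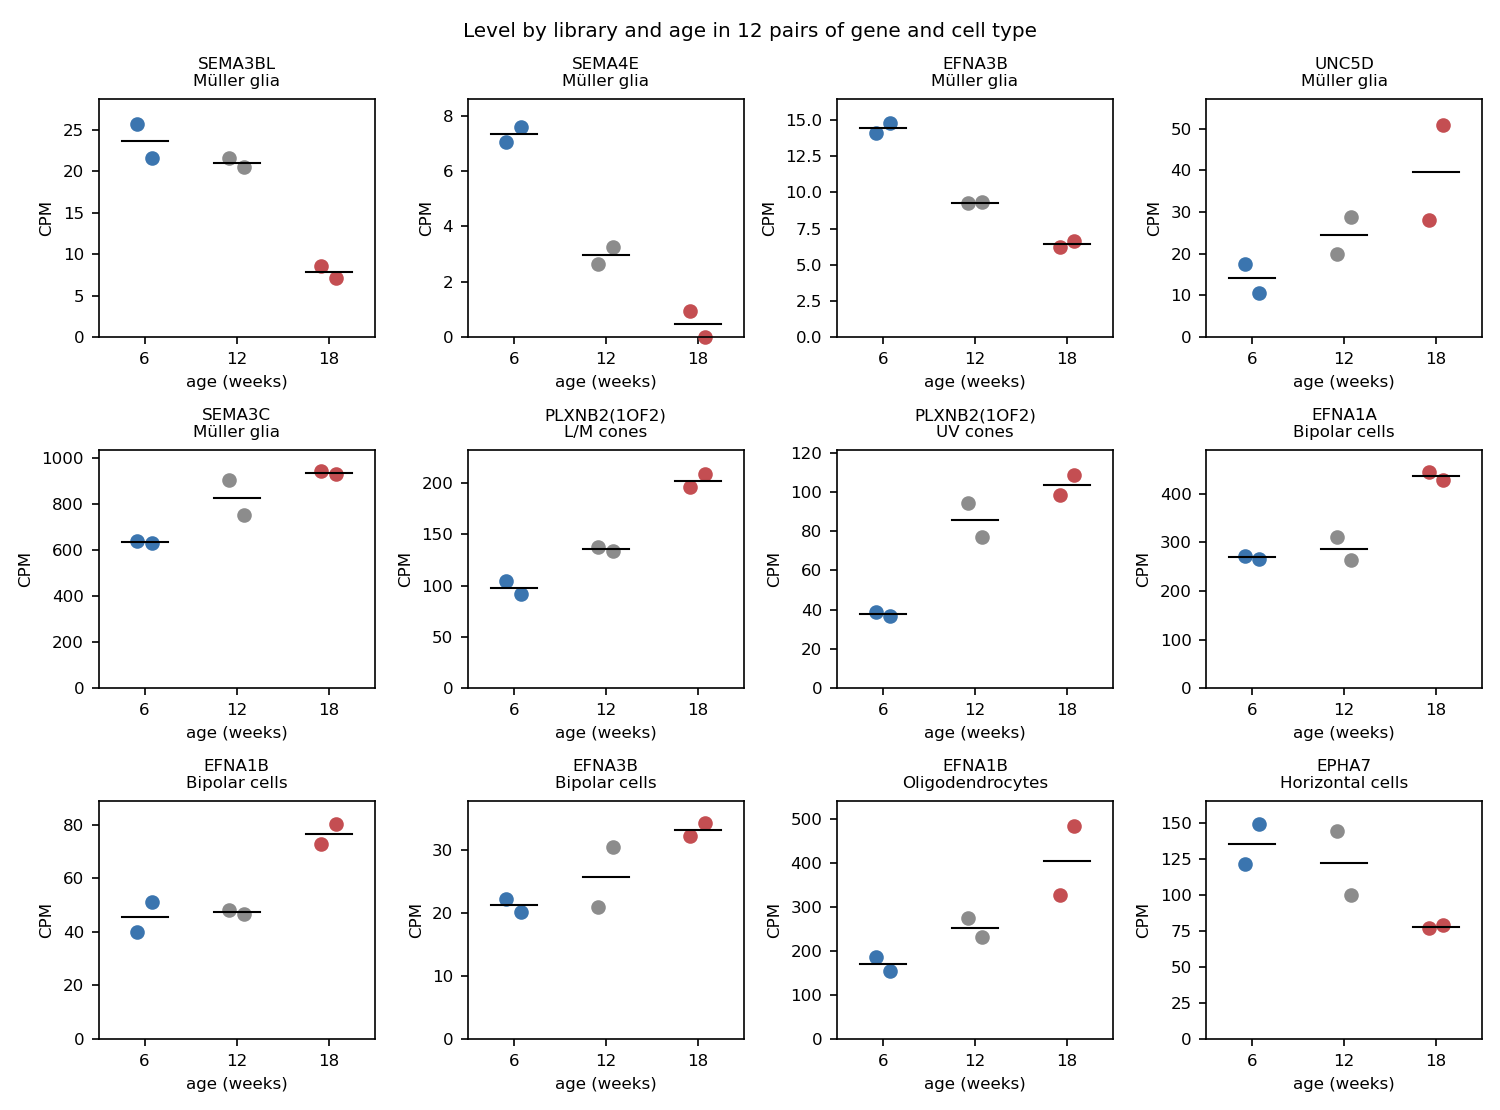
Level in CPM (vertical axis, from 0) at 6, 12 and 18 weeks (horizontal axis) for 12 pairs of guidance gene and cell type, with 1 point per library and a line at the mean of the 2 libraries of an age. SEMA3BL in Müller glia (8.58 and 7.19 CPM at 18 weeks, against 25.7 and 21.7 CPM at 6 weeks) and EFNA1A in bipolar cells (445 and 428 CPM, against 272 and 267 CPM) stay near the 6-week level at 12 weeks.

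No guidance gene was called in the other 10 types, among them ganglion cells, Vip neurons and all amacrine types. In these types 409 pairs were tested with edgeR, 38 had an unadjusted p under 0.05, DESeq2 called 0, and 0.753% of all genes were called. An unadjusted p under 0.05 was found in ganglion cells for 7 of 82 guidance genes (all genes 1167 of 12161). GABAergic amacrine cells had it for 6 of 84 (1263 of 12545), rods for 7 of 38 (1607 of 10840) and differentiating cells for 6 of 42 (834 of 8615). Ganglion cells had 110 and 109 cells in the 18-week-old libraries and starburst cells 21 and 18.

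With every cell of a library summed, 2 of 106 guidance genes were called at 18 against 6 weeks, where 3.63% of all genes were. EFNA1B had 22.6 and 25.2 CPM at 6 weeks, 30.8 and 25.7 CPM at 12 weeks, and 41.3 and 45.8 CPM at 18 weeks (0.87 at 18 against 6 weeks, SE 0.13, edgeR adjusted p 0.027). NRP1A (XLOC_014121) had 33.0 and 27.8 CPM at 18 weeks, against 49.2 and 48.2 CPM at 6 weeks (−0.68, SE 0.14, edgeR adjusted p 0.046). In such a sum, fewer cells of a type and less RNA per cell cannot be told apart. Ganglion cells, where NRP1A was highest, made up 2.07% and 2.27% of cells at 18 weeks, against 3.82% and 3.10% at 6 weeks. Within ganglion cells NRP1A had 363 and 330 CPM at 18 weeks, against 368 and 293 CPM at 6 weeks (0.07, SE 0.20, edgeR adjusted p 0.935). Both calls were lost without 18-week-old replicate 2 or either 6-week-old library, and NRP1A also without 18-week-old replicate 1 (edgeR adjusted p 0.066 to 0.210).

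The middle age was compared with both ends. At 18 against 12 weeks, 6 of 696 pairs were called (4 rises and 2 falls), where 0.493% of all pairs were. An unadjusted p under 0.05 was found for 84 of the 696 pairs, and for 12350 of all 138175 pairs. By type, 1.33% of all genes were called in bipolar cells, 0.984% in horizontal cells, 0.913% in Müller glia and 0.57% in L/M cones. These comparisons share the 18-week-old libraries with those above. In bipolar cells the log2 fold changes were 0.61 for EFNA1A (SE 0.11) and 0.69 for EFNA1B (SE 0.13), both at an edgeR adjusted p of 0.018. EFNA5A (XLOC_024337), also an A-type ephrin, had 21.0 and 12.4 CPM at 6 weeks, 6.25 and 7.36 CPM at 12 weeks, and 14.9 and 19.0 CPM at 18 weeks (1.32 at 18 against 12 weeks, SE 0.27, edgeR adjusted p 0.030). Its 12-week-old libraries lay below those of both other ages. SEMA3BL in Müller glia fell by 1.40 on the log2 scale (SE 0.29, edgeR adjusted p 0.025) and SEMA4C in horizontal cells by 0.73 (SE 0.17, edgeR adjusted p 0.0497). EPHB1(2OF2) (XLOC_022930) in L/M cones rose by 1.74 (SE 0.39, edgeR adjusted p 0.0465), from 21 and 5 UMIs at 12 weeks to 31 and 28 at 18 weeks. Each of the 6 calls was lost without at least 3 of the 6 libraries in turn. None changed direction, which was set beforehand, since their 18- and 12-week-old libraries did not overlap. Each was lost without 18-week-old replicate 2 (where 2 pairs were called) and 3 pairs were called without 12-week-old replicate 2, where EPHB1(2OF2) had a log2 fold change of 1.29. Without 12-week-old replicate 1, EPHB1(2OF2) had 2.77.

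At 12 against 6 weeks, none of the 696 pairs was called by edgeR, 63 had an unadjusted p under 0.05, and DESeq2 called 0, where edgeR called 0.122% of all pairs. Of all 138175 pairs, 7469 had an unadjusted p under 0.05. With all cells summed, edgeR called none of 106 guidance genes at 12 against 6 weeks (7 with an unadjusted p under 0.05, DESeq2 1, all genes 0% by edgeR). At 18 against 12 weeks edgeR called none either (15 with an unadjusted p under 0.05, DESeq2 2, all genes 0.0686% by edgeR). Of all 18964 genes in these sums, 1076 had an unadjusted p under 0.05 at 12 against 6 weeks, and 2464 at 18 against 12 weeks.

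Other genes of the guidance pathways were given from a list, of which 56 symbols were found, with 99 entries. CDK5, SDC1, NGEF, L1CAM and TAG1 were also listed but no entry was found under these names. At 18 against 6 weeks, 15 rises and 6 falls were called in 695 pairs, at 18 against 12 weeks 4 rises, and at 12 against 6 weeks 1 fall. Of all pairs, 2.36%, 0.493% and 0.122% were called in these comparisons, so the counts lay near the background. The genes named here were chosen after their values were seen. BOC (XLOC_013750), a co-receptor of Hedgehog signals, had 431 and 509 CPM in bipolar cells at 18 weeks, against 197 and 198 CPM at 6 weeks (1.25, SE 0.11, edgeR adjusted p 8.8e-05). It also rose in L/M cones (1.04), UV cones (1.54), differentiating cells (1.47) and the sum of all cells (0.99). The other BOC entry (XLOC_014219) was called in no comparison. GAP43, a growth cone protein of ganglion cells, had 29.5 and 31.0 CPM in the sum of all cells at 18 weeks, against 62.4 and 70.1 CPM at 6 weeks (−1.13, SE 0.12, edgeR adjusted p 0.011). Beside the lower share of ganglion cells given above, ganglion cell markers, with all 10 entries found, summed to 589 and 639 CPM at 18 weeks, against 692 and 650 CPM at 6 weeks, and their part was not tested. GAP43 is itself among these 10 entries, so the sum is not separate from its fall. GAP43 was called as a fall in GABAergic amacrine cells (−2.25) and bipolar cells (−1.19). The summed ganglion cell markers, GAP43 among them, were also lower without overlap in GABAergic amacrine cells, and overlapped in bipolar cells. Their part there was not tested. None of the 73 listed genes tested within ganglion cells was called. NEO1, a netrin receptor related to DCC, rose in rods, with 113 and 140 CPM at 18 weeks, against 67.8 and 59.6 CPM at 6 weeks (0.98, SE 0.21, edgeR adjusted p 0.015).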

How the data were processed

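The authors deposited UMI counts, not normalized, for each gene in each cell, made from 10x Genomics v3 3' libraries with Cell Ranger (7.0.1 per the submitters' processing notes) on a custom transcriptome that joined the GRZ assembly, its annotation and long-read telencephalon transcripts. Cells held 1001 to 19991 UMIs after the authors' filter, and cell types and clusters were theirs. Removal of doublets is not given in the sources used here. Neither strand of counting nor the sharing of reads between near-identical copies was checked.

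The members and gene lists were chosen with earlier results of these data known. Counts of all 24989 genes were summed per library and cell type in Python 3.11.15 (pandas 2.3.3). Types with at least 10 cells in each library entered the fits; RPE-annotated cells and red blood cells did not. Replicates of an age differed beyond sampling noise (chi-square over degrees of freedom 16.9 to 24.3 in the sums of all cells). Sums were scaled by TMM, filtered with filterByExpr by age and tested with edgeR 4.0.16 in R 4.3.3, with age as a factor of 3 levels and no block. The study tested single cells by regression; libraries were taken as the replicates instead. The change of a type against the others was tested with limma 3.58.1 (log2 CPM, prior count 2). DESeq2 1.42.0 was an alternative. Fits were tested on simulated data first. Intervals cover counting error only.

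Genes were named by rule: for levels, the 4 with the highest mean CPM in any fitted type per family and the 2 highest per type; for age, at 18 against 6 weeks up to 30 called pairs in types and those called in the sum of cells, and at each other comparison up to 10 called. Other genes are said in the text to be chosen after their values were seen. RefSeq (assembly NfurGRZ-RIMD1) matched 55 of the 111 genes by name and was used for neighbours only. No genome sequence was used here.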

Additional observations from a re-analysis of the deposited data

Results flagged for a closer look

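For 4 guidance genes the change at 18 against 6 weeks in Müller glia differed from the mean change of the other cell types, in limma's test of that difference (n = 2 libraries per age, adjusted over all genes of the type). The difference in log2 change was 1.76 for UNC5D (adjusted p 0.016), −1.23 for EFNA3B (adjusted p 0.036), −2.39 for SEMA4E (adjusted p 0.0032) and −1.24 for SEMA3BL (adjusted p 0.027). SEMA4E passed the count filter in no other type and had 2 and 0 UMIs at 18 weeks, so its difference depends on the prior count. SEMA3BL passed the filter in only 3 types, Müller glia among them. With a prior count of 0.5 in place of 2, 1 of the 4 differences was called.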

How the results depend on the processing

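At 18 against 6 weeks, the 30 called pairs became 13 with DESeq2, 63 with no filter on low counts and 10 with each cell thinned to 1000 UMIs, and leaving out single libraries gave 8 to 45. At 18 against 12 weeks the 6 calls became 23 with no filter and 3 with thinned cells (2 to 7 without single libraries). At 12 against 6 weeks the count of 0 became 9 with no filter and 1 with a replicate block (0 to 4 without single libraries). In the sum of all cells, the 2 calls at 18 against 6 weeks became 5 with DESeq2, 1 with no filter and 1 with the block (0 to 2 without single libraries), and DESeq2 called 1 gene at 12 against 6 and 2 at 18 against 12 weeks. The 4 differences between Müller glia and other types became 1 with a prior count of 0.5 (1 to 3 without single libraries). The 75 genes at 50 CPM were 73 to 75 without single libraries. The causes were not tested.

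Nothing in the labels pairs equal replicate numbers of different ages. Correlations between ages in the sums of all cells were −0.19 (6 and 12 weeks), −0.22 (6 and 18 weeks) and 0.38 (12 and 18 weeks). With 2 libraries per age, these values cannot decide whether samples were paired. With the replicate block, 33 pairs were called at 18 against 6 weeks and 6 at 18 against 12 weeks, and 3 differences between types. Over 38 named results and 482 alternative values, 315 stayed on their side of the threshold, 167 lost the call and 0 changed direction. Where a library was left out, the direction was set beforehand, since the compared ages of these pairs did not overlap. Of the 30 calls in types and the 2 in the sum, 2 were kept without each library in turn (PLXNB2(1OF2) in L/M cones, SEMA3BL in Müller glia). Leaving out bipolar cluster 10 was added after seeing the data and gave 29 calls. The 2 libraries per age and the low counts of many members limit the precision.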

Other observations

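Cells annotated as RPE (1 to 13 per library) entered no comparison. They had the highest mean of all types for RPE65A (1271 CPM), but also for the smooth muscle genes ACTA2 (2123 CPM) and TAGLN (1943 CPM). PDGFRB, of the same smooth muscle and pericyte list, was highest in Müller glia. In the RPE-annotated cells NTN1B (XLOC_013469, ntn1a in RefSeq) averaged 306 CPM (0 to 800 over 6 libraries, 80 UMIs in all, the highest from a library with 1 such cell). Of these UMIs, 56 came from replicate 1 of 18 weeks. NTN2, whose second name in the gene table is ntn3, averaged 64.6 CPM (0 to 235, 27 UMIs), while neither secreted netrin exceeded 6.38 CPM on average in any of the 16 fitted types. PLXNB2(1OF2) was found in all 6 libraries of these cells, at 122 to 510 CPM. These genes were chosen after their values were seen, and no test was made.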
